A study of Homo sapiens with 6 samples.

Results

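DU145 is an established cell line of human prostate cancer. Its proteasome subunit genes were described in cells given the solvent DMSO and in cells given 1 µM CCS1477 for 24 h. CCS1477 (inobrodib) is a small molecule that occupies the bromodomain of p300 and CBP, a pair of related acetyltransferases. Each condition had 3 libraries of poly-A RNA, all from cells labelled wild type and grown in the same medium, and all from a single cell line. The labels do not say whether the 3 libraries of a condition came from separate cultures, so each p-value reflects the spread among libraries alone, and that spread may be technical.

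Members were chosen by name. They are the genes whose symbol is PSMA, PSMB, PSMC, PSMD, PSME, PSMF or PSMG followed by a number, that are not described as a pseudogene and that held at least 60 counts over the 6 libraries. Of 60623 genes in the files, 48 had such a symbol and 46 were kept. The other two, PSMA8 and PSMB11, which encode a testis-specific and a thymus-specific subunit, had 0 counts in every library. The member nearest the minimum from above was PSMB10, with 450.5 counts in all. All 46 members passed the filter on low counts and were among the 14928 genes tested.

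The proteasome degrades proteins marked with ubiquitin. Its barrel, the 20S core, is built from outer rings of alpha subunits (PSMA genes) and inner rings of beta subunits (PSMB genes), and PSMB5, PSMB6 and PSMB7 carry the proteolytic activity. The 19S cap recognises ubiquitin chains and unfolds substrates. Its base contains a ring of ATPases (PSMC genes) and scaffold or ubiquitin-binding subunits (PSMD1, PSMD2 and PSMD4). The lid holds most of the other PSMD gene products, among them the deubiquitinase PSMD14. Under interferon, cells make the immunoproteasome, in which PSMB8, PSMB9 and PSMB10 take the places of PSMB5, PSMB6 and PSMB7, and in which PSME1 and PSME2 form an alternative cap, PA28. The immunoproteasome is known for generating peptides for MHC class I presentation. The remaining genes encode assembly chaperones (PSMG1 to PSMG4, PSMD5, PSMD9 and PSMD10), the activators PSME3 and PSME4 and the inhibitor PSMF1.

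Because interferon acts on genes through a short promoter element, the ISRE, promoter sequence is shown first for the immunoproteasome genes. RefSeq promoter windows (build GRCh38.p14, 250 bases before to 50 bases after each start) were matched for 40 of the 46 members. Both strands were searched for an ISRE-like pattern, GAAA and GAAA with any 2 bases between them (GAAA-NN-GAAA), which was in 3.57% of all 35116 windows and in a window of 4.38% of all 27305 genes. It was in windows of 4 of the 5 immunoproteasome genes (PSMB8, PSMB10, PSME1 and PSME2) and of 3 of the 35 other matched members (PSMA4, PSMB4 and PSMG4). In all 4 immunoproteasome genes and in PSMG4 the match was the same run, GAAAGCGAAA, which was in a window of 0.125% of all genes. That exact run was looked at after the matches had been seen. The stretches around it are printed 5′ to 3′ on the strand of the gene, with the match in capitals (TTTC on the printed strand where it lies on the other strand).
PSMB8, chr6:32844032-32844061, minus strand: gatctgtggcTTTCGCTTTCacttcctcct
PSMB10, chr16:67936852-67936881, minus strand: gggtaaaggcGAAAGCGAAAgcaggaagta
PSME1, chr14:24136189-24136218, plus strand: gccctaccgcTTTCGCTTTCccttcgcggt
PSME2, chr14:24146619-24146648, minus strand: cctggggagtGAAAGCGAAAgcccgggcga
PSMG4, chr6:3258904-3258933, plus strand: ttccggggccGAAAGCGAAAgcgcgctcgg
TAP1, chr6:32853813-32853848, minus strand: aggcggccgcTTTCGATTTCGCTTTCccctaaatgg

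Relative to the RefSeq start, the first base of the match was at -4 in PSMB8 (at the downstream of its 2 listed starts), -21 in PSMB10, -28 in PSME2, -33 in PSMG4 and 6 in PSME1. The window of PSMB9 held no match. PSMB9 starts 488 bases from the nearer of the 2 listed starts of TAP1 and 1431 bases from the other, on the opposite strand. TAP1, a subunit of the peptide transporter of the MHC class I pathway, is therefore shown for comparison. The window of the nearer TAP1 start held overlapping matches at -134 and -128, which lie between that start and the PSMB9 start. The window of the other TAP1 start held no ISRE-like match. A match is a description of these letters in this window and not evidence that a factor bound there.

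PSMB8 is also shown over a longer stretch, since it was the immunoproteasome gene that passed the test described below. The capitals mark a GAS-like match (TTCNNNGAA, the kind of element STAT dimers bind) and, at the end, the ISRE-like match.
PSMB8, chr6:32844042-32844241, minus strand: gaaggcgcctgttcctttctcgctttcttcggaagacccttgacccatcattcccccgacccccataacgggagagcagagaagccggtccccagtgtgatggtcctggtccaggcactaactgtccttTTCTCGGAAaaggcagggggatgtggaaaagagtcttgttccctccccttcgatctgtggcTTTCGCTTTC

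The GAS-like pattern was in windows of 9.38% of all genes and in those of 7 of the 40 matched members, of which PSMB8 was the only immunoproteasome gene. TGACNNNGC, the pattern of the antioxidant response element through which NRF1 and NRF2 act, was in windows of 16.1% of all genes and in those of 15 of the 40 members, 12 of them outside the immunoproteasome. CCAAT, the box bound by the factor NF-Y, was in windows of 39.7% of all genes. It was in those of 18 of the 35 other members and in that of 1 of the 5 immunoproteasome genes.

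Library totals ran from 8286883 to 11956748 counts, and 3 counts, taken as the limit of detection, corresponded to 0.251 to 0.362 CPM (counts scaled to library size with TMM factors), for counting error only. The 46 members took 0.620% to 0.681% of the counts. Of 14 epithelial and prostate markers, KLK3, KLK2, HOXB13 and FOLH1 had no count in any library, and the summed level of the list was 2367 to 2764 TPM (a unit scaled by transcript length and library) in DMSO and 2189 to 2334 in CCS1477. Of 10 leukocyte markers, PTPRC, MS4A1, CD3D and CD3E were at 0, and the list summed to 38.0 to 70.7 TPM in DMSO and 32.8 to 42.2 in CCS1477. Most of that sum was CD68, a lysosomal protein gene, with 66.1, 56.5 and 34.6 TPM in DMSO and 37.6, 30.5 and 34.1 TPM in CCS1477, which was itself lower (log2 fold change -0.56, Benjamini-Hochberg adjusted p = 0.00709 in the quasi-likelihood test of edgeR). Of 8 stromal and endothelial markers, DCN, LUM, COL3A1 and PECAM1 were at 0, and the list summed to 5.82 to 11.3 TPM in DMSO and 4.04 to 5.51 in CCS1477. In bulk RNA, fewer cells of a type and less RNA per cell cannot be told apart.

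Most subunits are present in equal copy number in the particle, while their transcript levels differed. Levels between genes are given as TPM, which is per length. In DMSO, the alpha ring ran from 56.3 TPM (PSMA5) to 714.2 TPM (PSMA6), a range of 12.7-fold, and the beta ring from 99.8 TPM (PSMB2) to 697.3 TPM (PSMB4), a range of 6.99-fold. Their medians were close, at 239.3 and 283.3 TPM. PSMA6 at 714.2 ± 4.0 TPM and PSMB4 at 697.3 ± 37.5 TPM (SD, n = 3) were the most abundant members and did not differ beyond their spread.

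In the cap, the median was 162 TPM for the ATPases, 122 TPM for the lid and 293.8 TPM for the 3 other base genes, so the cap was not lower than the core throughout. The ATPases ran from 74.3 TPM (PSMC2) to 277.8 TPM (PSMC1), and the lid from 68.2 TPM (PSMD6) to 292.5 TPM (PSMD8). PSMD2, a scaffold subunit that docks ubiquitin shuttle factors, was the most abundant gene of the cap at 358.8 ± 40.7 TPM (SD, n = 3).

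The catalytic immunosubunits stood at the lower end. PSMB8, PSMB9 and PSMB10 had 47.7 ± 4.57, 26.8 ± 2.74 and 25.2 ± 3.81 TPM in DMSO (SD, n = 3), ranks 41, 45 and 46 of the 46 members, next to the activator PSME4 at 26.9 ± 4.88 TPM. PSMB9, PSMB10 and PSME4 did not differ from each other beyond their spread. Even so, PSMB10 was at percentile 62.1 of the tested genes by level, and PSMA6 was at percentile 98.8. The PA28 genes PSME1 and PSME2 were higher, at 82.0 ± 7.32 and 78.6 ± 13.5 TPM.

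**Figure D1:**
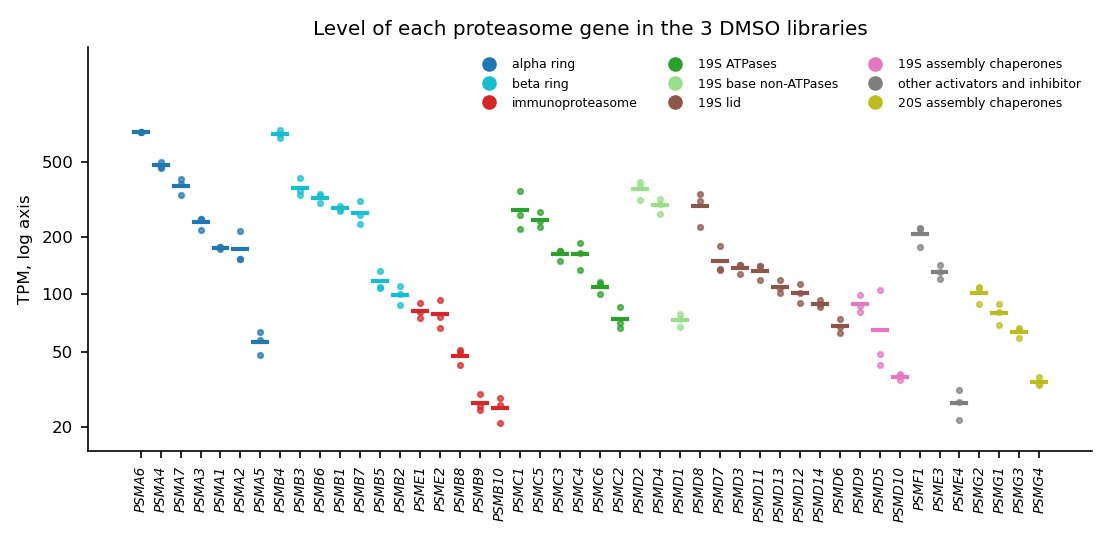
Level of each of the 46 proteasome genes in TPM (log axis) in the 3 DMSO libraries, grouped by role; points are libraries and bars are means. The catalytic immunosubunits PSMB8, PSMB9 and PSMB10 lie between 25.2 and 47.7 TPM, while PSMA6 and PSMB4 stand at 714.2 and 697.3 TPM.

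After CCS1477, few proteasome genes were called as changed. PSMB8, the immunosubunit with chymotrypsin-like activity, fell by 37.6%. The alpha subunit PSMA6 fell by 22.6%, the catalytic subunit PSMB5 fell by 30.3% and the catalytic subunit PSMB6 fell by 19.6%. The scaffold subunit PSMD2 rose by 21.9%. In the quasi-likelihood test of edgeR, with p-values adjusted by Benjamini-Hochberg over all tested genes and a threshold of 0.05, 4 of 46 members were lower and 1 was higher, and 41 did not pass. Over all tested genes 10.7% were lower and 7.23% higher, so the members' count of lower genes was near the background and that of higher genes below it. The median log2 fold change of the members was -0.08, against 0.00 over all tested genes. Overlap of the groups was read in CPM unless TPM is named. The groups did not overlap, with CCS1477 lower, for 9 members (19.3% of all tested genes). With CCS1477 higher, they did not overlap for 5 members (16.5% of all tested genes).

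Of the 5 immunoproteasome genes, 1 was lower and 0 were higher (10.7% and 7.23% of all tested genes). Their median log2 fold change was -0.23. An unadjusted p under 0.05 was reached by 2 of them, both lower, and by 31.7% of all tested genes. All 5 log2 fold changes were negative in this fit, but 4 were negative with RLE factors, DESeq2, limma-voom and limma on both TPM scales, and 3 when libraries were scaled by their size alone or when DMSO 3 was left out. Of the 41 other members, 3 were lower and 1 higher (10.7% and 7.23% of all tested genes), with a median of -0.07.

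PSMB8 (ENSG00000204264, chromosome 6, 32840717 to 32844679, in the MHC region) had 35.1, 30.1 and 40.5 CPM in DMSO and 18.6, 24.1 and 23.1 CPM in CCS1477. Every CCS1477 library was below every DMSO library. The means were 35.2 ± 5.21 and 21.9 ± 2.89 CPM (SD, n = 3), and the log2 fold change was -0.68 ± 0.15 (SE; Benjamini-Hochberg adjusted p = 0.00828 in the quasi-likelihood test of edgeR). The call held without any 1 of the 6 libraries, and was missed by limma on log2(TPM + 1) (adjusted p = 0.0509) and on log2(TPM + 0.1) (adjusted p = 0.0529). PSMB8 is overlapped on the other strand by PSMB8-AS1, whose counts came to 43.4% of those of PSMB8, and by PSMB9, whose counts came to 46.3%, and strandedness is not given. PSMB8-AS1 itself stood at -0.27 ± 0.19 (log2 fold change ± SE; adjusted p = 0.356 in the same edgeR test).

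PSMB10 (chromosome 16, 67934506 to 67936864), the immunosubunit with trypsin-like activity, had 7.84, 8.04 and 11.9 CPM in DMSO and 5.83, 6.14 and 6.40 CPM in CCS1477. In CPM the groups did not overlap, and DMSO 3 stood well above the other DMSO libraries. In TPM the groups overlapped narrowly, with 20.99, 26.17 and 28.41 in DMSO and 19.86, 16.54 and 21.01 in CCS1477. The log2 fold change of -0.58 ± 0.22 (SE; Benjamini-Hochberg adjusted p = 0.0870 in the quasi-likelihood test of edgeR) did not pass, and without DMSO 3 it was -0.38 (adjusted p = 0.256). A gene on the same strand, ENSG00000261884, overlaps PSMB10 with 49.6% of its count. With both counts added the log2 fold change was -0.47 (adjusted p = 0.0987 in the same edgeR test).

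PSMB9 (chromosome 6, 32844136 to 32859851), which takes the place of PSMB6, had 13.5, 11.6 and 18.8 CPM in DMSO and 12.5, 11.1 and 13.6 CPM in CCS1477. The groups overlapped, with DMSO 3 again the highest. Its log2 fold change was -0.23 ± 0.19 (SE; Benjamini-Hochberg adjusted p = 0.460 in the quasi-likelihood test of edgeR), and -0.02 without DMSO 3. Its annotated span overlaps TAP1 and PSMB8 on the other strand and PSMB8-AS1 on its own strand, so some of its reads cannot be told apart from theirs.

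The PA28 genes lie near each other on chromosome 14. PSME1 (24136163 to 24138967) had 46.0, 38.5 and 46.9 CPM in DMSO and 44.0, 42.2 and 44.3 CPM in CCS1477, with the log2 fold change at -0.01 ± 0.11 (± SE; Benjamini-Hochberg adjusted p = 0.971 in the quasi-likelihood test of edgeR). PSME2 (24143362 to 24147570) had 29.3, 27.4 and 43.0 CPM in DMSO and 26.4, 36.0 and 33.9 CPM in CCS1477, with the log2 fold change at -0.04 ± 0.18 (± SE; adjusted p = 0.912 in the same edgeR test). For both genes the groups overlapped, and both carry the GAAAGCGAAA run that PSMB8 and PSMB10 carry.

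**Figure D2:**
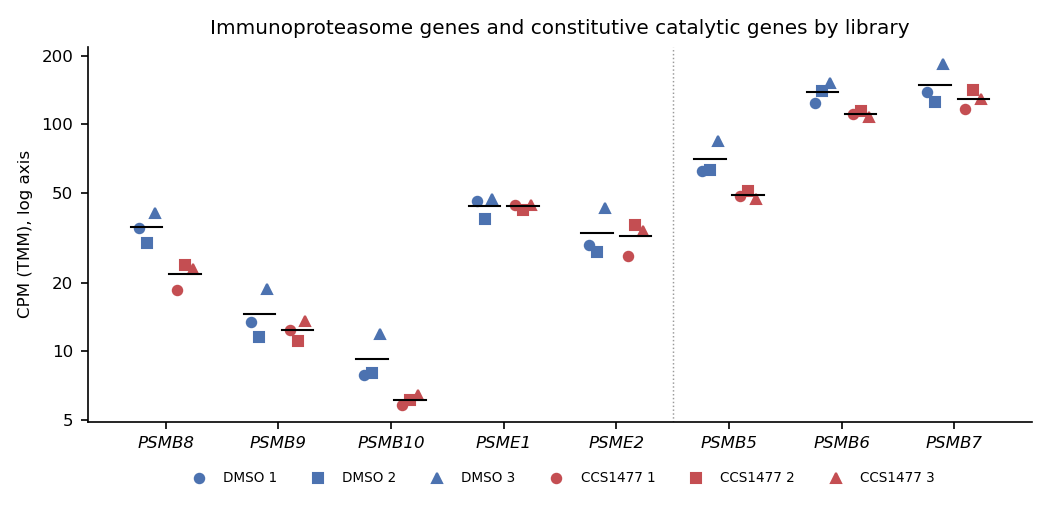
CPM (TMM scaling, log axis) of the 5 immunoproteasome genes and of the constitutive catalytic genes PSMB5, PSMB6 and PSMB7 in each library; bars are group means. For PSMB8, PSMB10, PSMB5 and PSMB6 every CCS1477 library is below every DMSO library, and the DMSO 3 triangle is the highest DMSO point for all 8 genes.

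Of the constitutive catalytic genes, PSMB5 and PSMB6 were lower and PSMB7 did not pass. PSMB5 (ENSG00000100804, chromosome 14, 23016543 to 23035230), the chymotrypsin-like subunit that PSMB8 replaces and the main target of bortezomib, had 62.3, 63.1 and 84.6 CPM in DMSO and 48.1, 50.8 and 47.0 CPM in CCS1477. The groups did not overlap. For PSMB5 the log2 fold change was -0.52 ± 0.13 (SE; Benjamini-Hochberg adjusted p = 0.0148 in the quasi-likelihood test of edgeR), which was -0.37 without DMSO 3 (adjusted p = 0.0209 in the same test). The call ended without CCS1477 1 (adjusted p = 0.0517) or without CCS1477 3 (adjusted p = 0.0666).

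PSMB6 (ENSG00000142507, chromosome 17, 4796144 to 4798502), the caspase-like subunit, had 124.4, 140.3 and 151.8 CPM in DMSO and 111.4, 114.9 and 108.1 CPM in CCS1477. The groups did not overlap, but the gap between them was narrower than for PSMB5. The log2 fold change of -0.32 ± 0.09 (SE; Benjamini-Hochberg adjusted p = 0.0383 in the quasi-likelihood test of edgeR) was called in 7 of 18 alternative settings. Without DMSO 2, DMSO 3, CCS1477 1, CCS1477 2 or CCS1477 3 in turn, its adjusted p was 0.0685, 0.0632, 0.0975, 0.105 and 0.138.

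PSMB7 (chromosome 9, 124353465 to 124415444), the trypsin-like subunit, had 139.1, 125.1 and 184.3 CPM in DMSO and 116.4, 141.8 and 129.0 CPM in CCS1477. These groups overlapped, and the log2 fold change of -0.21 ± 0.13 did not pass (SE; Benjamini-Hochberg adjusted p = 0.320 in the quasi-likelihood test of edgeR).

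Because the immunosubunits take the places of the constitutive ones, each was set against its counterpart as a ratio of TPM. PSMB8 stood at 45.8%, 38.7% and 38.4% of PSMB5 in DMSO and at 32.4%, 39.3% and 37.8% in CCS1477. PSMB9 stood at 8.20%, 7.65% and 9.11% of PSMB6 in DMSO and at 9.56%, 7.17% and 11.5% in CCS1477. PSMB10 stood at 8.02%, 11.1% and 9.11% of PSMB7 in DMSO and at 8.78%, 6.02% and 8.59% in CCS1477. The groups overlapped for all 3 ratios.

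The PSMB8 ratio was thus larger than the other two in every library. On the log2 scale, the ratios moved by -0.17, 0.15 and -0.28 (two-sided exact permutation p = 0.3, 0.6 and 0.4, and 0.6 for each after Benjamini-Hochberg adjustment over the 3 ratios). The smallest p this design allows is 0.1, so no ratio could have passed.

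**Figure D3:**
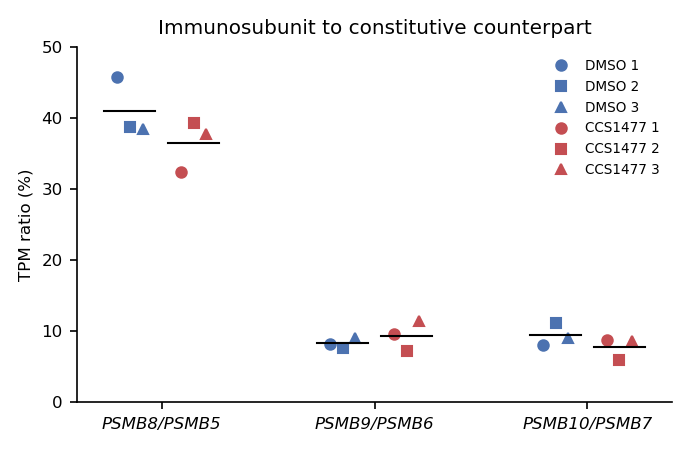
TPM of each catalytic immunosubunit as a percentage of its constitutive counterpart in each library; bars are group means. PSMB8 is at 32.4% to 45.8% of PSMB5 and the other two ratios lie between 6.02% and 11.5%, with DMSO and CCS1477 libraries overlapping in each.

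In the constitutive 20S core, 3 of 14 genes were lower and 0 were higher, against 10.7% and 7.23% of all tested genes. The other 11 did not pass, and the median log2 fold change was -0.13. By ring, 1 of 7 alpha genes (PSMA6) and 2 of 7 beta genes (PSMB5 and PSMB6) were lower. PSMA6 (ENSG00000100902, chromosome 14, 35278633 to 35317493) had 386, 392 and 409 CPM in DMSO and 320.1, 305 and 294 CPM in CCS1477. Its groups were well apart and its DMSO libraries agreed closely. For PSMA6 the log2 fold change was -0.37 ± 0.08 (SE; Benjamini-Hochberg adjusted p = 0.00826 in the quasi-likelihood test of edgeR).

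The PSMA6 call held without DMSO 3 (-0.35, adjusted p = 0.00515 in the same edgeR test) and ended without CCS1477 2 (adjusted p = 0.0540) or CCS1477 3 (adjusted p = 0.0551). ENSG00000258790 overlaps PSMA6 on its strand with 11.7% of its count. With both counts added PSMA6 was still lower, at -0.30 (adjusted p = 0.0248 in the same edgeR test). With PSMB4, PSMA6 was among the 2 members with the highest mean TPM in DMSO.

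The other core genes did not pass. The remaining alpha genes had log2 fold changes from -0.26 (PSMA2) to -0.04 (PSMA5), and PSMA3 had groups that did not overlap at -0.09. Among the remaining beta genes, PSMB2 stood at -0.14, PSMB1 at -0.12, PSMB3 at -0.11 and PSMB4 at 0.06. In all, 13 of 14 core genes had a negative log2 fold change (50.4% of all tested genes), while 12 did on both TPM scales, and 11 when libraries were scaled by size alone or when DMSO 3 was left out. Summed over the 14 genes, the core had 4399, 4239 and 4451 TPM in DMSO and 4076, 4277 and 4106 TPM in CCS1477, and these groups overlapped. In summed CPM it had 2387, 2295 and 2683 in DMSO and 2132, 2234 and 2253 in CCS1477, and there every CCS1477 library was below every DMSO library.

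In the 19S cap, 1 of 17 genes was higher and 0 were lower, against 7.23% and 10.7% of all tested genes. The other 16 did not pass, and the median log2 fold change was 0.01. PSMD2 (ENSG00000175166, chromosome 3, 184299198 to 184309050) had 606, 655 and 621 CPM in DMSO and 752, 772 and 770.4 CPM in CCS1477. Every CCS1477 library was above every DMSO library. The log2 fold change was 0.29 ± 0.08 (SE; Benjamini-Hochberg adjusted p = 0.0233 in the quasi-likelihood test of edgeR). It was 0.27 without DMSO 3 (adjusted p = 0.0153), while the call ended without DMSO 1 (adjusted p = 0.112) or without any 1 of the CCS1477 libraries (adjusted p = 0.0505 to 0.105). Whether core and cap differed from each other was not tested.

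Other cap genes came near the threshold, and they are named here after their values were seen. PSMD6, a lid subunit, had 62.6, 62.7 and 61.3 CPM in DMSO and 73.4, 75.8 and 73.0 CPM in CCS1477 (log2 fold change 0.25 ± 0.09, SE; Benjamini-Hochberg adjusted p = 0.0711 in the quasi-likelihood test of edgeR). PSMC2, an ATPase, had 123.1, 129.1 and 124.0 CPM in DMSO and 152.3, 143.6 and 141.4 CPM in CCS1477 (0.22 ± 0.08, adjusted p = 0.0912 in the same edgeR test). PSMC3, another ATPase of the same ring, lay the other way, with 148.4, 138.2 and 157.7 CPM in DMSO and 120.3, 122.7 and 127.5 CPM in CCS1477 (-0.26 ± 0.09, adjusted p = 0.0563 in the same edgeR test). In these 3 genes the groups did not overlap, and none of them passed.

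By position in the cap, 0 of 6 ATPases and 0 of 8 lid genes were called by edgeR (2 and 1 had an unadjusted p under 0.05, against 31.7% of all tested genes), and the 1 call among the 3 other base genes was PSMD2. The other base genes, PSMD1 and the ubiquitin receptor PSMD4, had log2 fold changes of 0.01 and 0.03. The lid genes ran from -0.22 (PSMD13) to 0.25 (PSMD6). Groups did not overlap, with CCS1477 lower, for 1 lid gene, PSMD13 (19.3% of all tested genes). With CCS1477 higher, they did not overlap for 2 lid genes, PSMD6 and PSMD12 at 0.14 (16.5% of all tested genes). The deubiquitinase PSMD14 stood at -0.08. Summed over the 17 cap genes, the level was 2839, 2905 and 2783 TPM in DMSO and 2984, 3018 and 3026 TPM in CCS1477, with every CCS1477 library above every DMSO library. PSMD2 alone went from a mean of 358.8 to 474.3 TPM, against sums of 2842 and 3009 TPM. In summed CPM the cap had 2981, 2992 and 3216 in DMSO and 3112, 3216 and 3198 in CCS1477, and there the groups overlapped.

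None of the 10 chaperones and regulators outside the immunoproteasome was called by edgeR, 1 of them had an unadjusted p under 0.05 (31.7% of all tested genes), and the median log2 fold change was -0.04. PSME4, which encodes the activator PA200 and was the one with an unadjusted p under 0.05, had 139.5, 156.2 and 118.7 CPM in DMSO and 197.4, 167.1 and 163.5 CPM in CCS1477. The groups did not overlap. The log2 fold change was 0.35 ± 0.11 (SE; Benjamini-Hochberg adjusted p = 0.0543 in the quasi-likelihood test of edgeR), the largest positive value among the 46 members, and 5 of 18 alternative settings called it. PSME3, the nuclear activator PA28 gamma, stood at 0.00, the inhibitor PSMF1 at -0.11. The 19S assembly chaperones PSMD5, PSMD9 and PSMD10 (gankyrin) stood at -0.07, -0.04 and 0.00.

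Among the 20S assembly chaperones, log2 fold changes ran from -0.22 (PSMG4) to 0.11 (PSMG1). PSMG4, which carries the GAAAGCGAAA run, had 17.7, 17.9 and 17.7 CPM in DMSO and 12.9, 16.5 and 16.5 CPM in CCS1477. The groups did not overlap, and the log2 fold change of -0.22 ± 0.15 did not pass (SE; Benjamini-Hochberg adjusted p = 0.346 in the quasi-likelihood test of edgeR). PSMG4 is overlapped on the other strand by SLC22A23, whose counts came to 72.2% of its own.

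**Figure D4:**
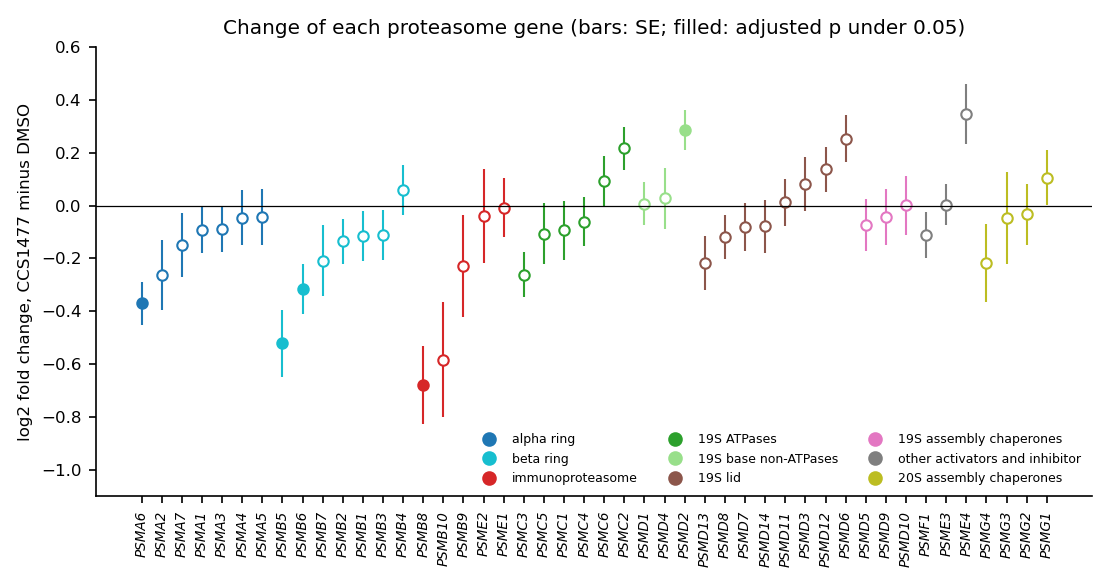
log2 fold change (CCS1477 minus DMSO) of the 46 proteasome genes with its SE, ordered by role; filled points passed an adjusted p of 0.05 in edgeR. PSMA6, PSMB5, PSMB6 and PSMB8 are filled below 0 and PSMD2 is filled above 0, while the genes of the 19S cap lie on both sides of 0, from -0.26 to 0.29.

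The library DMSO 3 moved with these results. In CPM it was the highest of the DMSO libraries for 30 of 46 members (38.3% of all tested genes), for 12 of the 14 core genes and for all 5 immunoproteasome genes. In TPM, where each library is scaled by transcript length, DMSO 3 was the highest DMSO library for 19 of 46 members. DMSO 2 was the highest for 16 and DMSO 1 for 11. No share over all tested genes was computed on the TPM scale. The summed member level of DMSO 3, 8263 TPM, was the lowest of the 3. Without DMSO 3, 25 rather than 32 members had a negative log2 fold change, and the core median was -0.04. The members called were then PSMB8, PSMB5, PSMA6 and PSMD2, with PSMB8 at -0.58 (Benjamini-Hochberg adjusted p = 0.0130 in the quasi-likelihood test of edgeR). The part of this library in the other differences was not tested.

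Few genes that assemble, feed or assist the proteasome were called as changed. Of 30 such partners, 1 was higher and 1 lower (7.23% and 10.7% of all tested genes), with a median log2 fold change of -0.01. Groups did not overlap, with CCS1477 lower, for 3 partners (19.3% of all tested genes). With CCS1477 higher, they did not overlap for 6 partners (16.5% of all tested genes). PITHD1, a proteasome-interacting thioredoxin-domain protein, rose from 22.0 ± 2.06 to 33.3 ± 1.2 CPM (SD, n = 3; log2 fold change 0.60 ± 0.12, SE; Benjamini-Hochberg adjusted p = 0.00601 in the quasi-likelihood test of edgeR). DDI2, the protease that activates the transcription factor NRF1 when the proteasome is impaired, fell from 48.2 ± 1.10 to 35.9 ± 3.07 CPM (-0.42 ± 0.11, adjusted p = 0.0185 in the same edgeR test). In CPM the groups of both genes did not overlap. In TPM those of DDI2 overlapped, with 8.16, 6.57 and 5.35 in DMSO and 6.48, 6.65 and 4.13 in CCS1477.

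The segregase VCP stood at 0.24 (Benjamini-Hochberg adjusted p = 0.0674 in the quasi-likelihood test of edgeR), the shuttle factor UBQLN4 at -0.21 (adjusted p = 0.109) and POMP, the maturation factor of the 20S core, at -0.12 (adjusted p = 0.616). SEM1, a small lid subunit whose name falls outside the symbol pattern, was named after its values were seen. Its level was 94.9 CPM in DMSO 3 but 31.8 CPM in DMSO 1 and 21.6 CPM in DMSO 2.

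Among 12 genes of factors known to act on proteasome genes, 3 were lower and 0 higher (10.7% and 7.23% of all tested genes). Their median log2 fold change was nevertheless 0.06. NFE2L3, which encodes the NRF1 relative NRF3, had 50.7, 34.6 and 41.5 CPM in DMSO and 25.4, 19.8 and 24.8 CPM in CCS1477. These groups did not overlap, and the log2 fold change was -0.86 ± 0.16 (SE; Benjamini-Hochberg adjusted p = 0.00319 in the quasi-likelihood test of edgeR). NFYB, a subunit of NF-Y, fell from 45.5 ± 3.29 to 33.4 ± 2.77 CPM (SD, n = 3), and its partner NFYA stood at 0.31 (adjusted p = 0.0641 in the same edgeR test). STAT3 also fell, at -0.33. NFE2L1, the gene of NRF1 itself, had 355.4 ± 24.1 CPM in DMSO and 329.8 ± 22.7 CPM in CCS1477 (SD, n = 3), a log2 fold change of -0.11 that did not pass (Benjamini-Hochberg adjusted p = 0.448 in the quasi-likelihood test of edgeR).

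Of 20 tested genes that control the immunoproteasome through interferon or act with it in MHC class I peptide supply, 8 were lower and 0 higher. Over all tested genes the shares were 10.7% and 7.23%. The median log2 fold change of the 20 genes was -0.20. This list was drawn up with falls among interferon genes of these same libraries already known, so its direction is no independent evidence. TAP1 and TAP2, the subunits of the peptide transporter, lie beside PSMB8 and PSMB9 on chromosome 6. TAP2 was lower at -0.69 ± 0.12 (SE; Benjamini-Hochberg adjusted p = 0.00219 in the quasi-likelihood test of edgeR). TAP1 had 93.2, 85.8 and 96.0 CPM in DMSO and 88.9, 88.5 and 89.6 CPM in CCS1477, and these groups overlapped (log2 fold change -0.04 ± 0.09, SE; adjusted p = 0.790 in the same edgeR test). IRF1, a main inducer of the immunosubunits, had 32.9 ± 1.83 and 32.7 ± 1.36 CPM (SD, n = 3; log2 fold change -0.01). ERAP2, ERAP1 and NLRC5 of the same list were lower at -1.15, -0.80 and -0.97.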

How the data were processed

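Estimated counts and TPM per gene were deposited by the authors for 6 libraries, 3 DMSO and 3 CCS1477, with groups and replicate numbers taken from the sample titles. The deposited estimated counts were not normalized (by library, 10.2% to 10.7% of values above 0 were fractional), and the deposited TPM had nearly equal sums in all libraries. The submitters' processing notes list Trimmomatic 0.39. The sources used here give no aligner, quantifier, build or strandedness, and coordinates of genes are those of the files. Without strand, reads of overlapping genes cannot be told apart.

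Counts were rounded and filtered by filterByExpr (minimum count 10, minimum total 15). The groups were compared with edgeR 4.0.16 (TMM factors, quasi-likelihood test, Benjamini-Hochberg over all tested genes, threshold 0.05, no covariates) in R 4.3.3. The procedure was tested on simulated data. Alternatives were other scaling, DESeq2 1.42.0, limma-voom, limma 3.58.1 on TPM (log2 after adding 1 or 0.1), other filters and thresholds, a test against a fold of 1.2, a replicate block and leaving out each library. Adding the counts of genes that overlap a member on the same strand was chosen after seeing the data. Ratios were tested by exact permutation. Promoter windows are from RefSeq (GRCh38.p14). Plots used matplotlib 3.10.9.

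The members, the partner, activator and interferon-control lists, the marker lists and the tests were chosen with earlier results of these data known. The naming rule gives the immunoproteasome genes, PSMB5, PSMB6, PSMB7, every member past the threshold, the members with the highest and lowest TPM and those nearest the count minimum. From each other list it gives up to 4 genes by smallest adjusted p, up to 2 with the opposite sign past the threshold, and always TAP1, IRF1, NFE2L1 and POMP. SOCS1 did not pass the filter. Some genes of the lists are not reported here.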

Additional observations from a re-analysis of the deposited data

How the results depend on the processing

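Among all tested genes the calls (higher, lower) were 293 and 427 by limma on log2(TPM + 1), 280 and 410 on log2(TPM + 0.1), 380 and 852 at an adjusted p of 0.01, 369 and 846 against a fold of 1.2, and 487 to 1311 and 925 to 1772 when 1 library was left out. Among the 46 members, the 4 lower became 0 on both TPM scales, 2 at 0.01, 1 against a fold of 1.2 and 1 to 5 with a library left out. The 1 higher became 4 by library size alone, 2 by DESeq2, without a filter or at a minimum count of 30, 0 on both TPM scales, at 0.01 and against 1.2, and 0 to 2 with a library left out. Outside the immunoproteasome the higher counts were the same, and the 3 lower became 0 on both TPM scales and against 1.2, 1 at 0.01 and 0 to 4 with a library left out, while the median of -0.07 became -0.0081 on log2(TPM + 1) and -0.0082 on log2(TPM + 0.1). The 1 lower immunoproteasome gene became 0 on both TPM scales and stayed 1 without any 1 library. Partners higher became 2 by library size alone or DESeq2 and 1 to 3 with a library left out; partners lower became 0 on both TPM scales, at 0.01 and against 1.2, and 0 to 2. Activators lower became 1 on both TPM scales, at 0.01 and against 1.2, and 1 to 3; activators higher became 1 by library size alone or without a filter, and 0 to 1. Interferon-control genes lower became 1 on both TPM scales, 5 at 0.01 and 5 to 8; higher, 0 to 1. The causes were not tested. No called member changed direction in any of the 18 alternatives.

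With the replicate number as a block, members higher became 0 (PSMD2, adjusted p = 0.0815 in edgeR) and PSMB6 (adjusted p = 0.0791) and STAT3 (0.0506) were no longer called; no other call on a gene named here changed. Same-numbered DMSO and CCS1477 libraries had correlations of -0.09, -0.20 and -0.01 in their deviations. Pairs with different numbers ran from -0.19 (DMSO 3 with CCS1477 1) to 0.27 (DMSO 2 with CCS1477 1). The deviations are taken from the mean of each group of 3, so these correlations constrain each other. Whether same-numbered libraries share more than a number cannot be told from them. The depth of 8286883 to 11956748 counts, with 3 libraries a group, limits what could be detected for PSMB9 and PSMB10.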

Other observations

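The 10-base run GAAAGCGAAA, chosen after its matches in the immunoproteasome promoters had been seen, was in RefSeq promoter windows of 34 genes, of which 27 were tested. In the quasi-likelihood test of edgeR, adjusted by Benjamini-Hochberg over all tested genes, 5 were lower with CCS1477 and 1 was higher. The shares over all tested genes were 10.7% and 7.23%. The other 21 did not pass. Of the 27 log2 fold changes, 23 were negative (50.4% of all tested genes), with a median of -0.18. The lower genes were TNFRSF1B, a TNF receptor (-1.59), TAP2 (-0.69), PSMB8 (-0.68), PARP14, an ADP-ribosyltransferase (-0.61), and ARAP1, a GTPase-activating protein (-0.37). The higher gene was FAM111A, a serine protease (0.33). The adaptor MYD88 stood at -0.25 and TAP1 at -0.04, and neither passed. Some of these genes start on opposite strands of the same stretch, such as PSME2 and RNF31 or PSMB8 and PSMB8-AS1, so they are not independent, and no test was made on the list.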
